A study of Mus musculus with 6 samples.

Results

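The effect of LIF on gene expression of mESCs was examined at passage 10 (P10) by setting LIF-ESCs, grown with 1000 U/mL of leukaemia inhibitory factor (LIF), against -LIF-ESCs, grown in the same basic medium with no added cytokine. All libraries of both groups were taken, 2 per group and 4 of the 6 in the series. The remaining 2 libraries, from cells grown with oncostatin M (OSM), entered only the shared estimate of the spread. The cells of both groups came from 1 mESC line derived from C57BL/6X129S6 blastocysts. They had spent 5 passages in conventional medium that held serum and LIF. In these passages they grew on feeder cells, which are mouse embryonic fibroblasts (MEFs) stopped from dividing with mitomycin C. Then came 10 passages in the test media, so that LIF was withdrawn from -LIF-ESCs and continued in LIF-ESCs. Both test media were made up of knockout DMEM and fetal bovine serum together with glutamine, β-mercaptoethanol, antibiotics and non-essential amino acids. Whether feeder cells were still present when RNA was taken is not given in the sources used here, and differences between cell lines could not be measured with 1 line. The extraction note in the labels names rOvaries, whereas the cell type label names embryonic stem cells. The summed level of 10 stem cell markers was 5662 and 5656 TPM in the -LIF-ESC libraries and 7521 and 7473 TPM in the LIF-ESC libraries. Transcripts of these markers were thus present in both groups, but a sum does not show the state of the cells.

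LIF is a cytokine of the interleukin 6 family that binds the LIF receptor (Lifr) together with gp130 (Il6st). The paired receptors activate JAK kinases, which phosphorylate the transcription factor STAT3, and STAT3 in turn switches on target genes that include its own inhibitor Socs3. In mouse ESCs grown in serum, this signal is known for keeping cells in the naive state, the state of the preimplantation epiblast, through factors such as Klf4, Tfcp2l1 and Gbx2, while cells deprived of it move toward the germ layers or extraembryonic fates.

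Expression values were TPM, a unit for transcript levels in which the reads of a gene are divided by its length and every library is scaled to 1 total. A log2 fold change below is the mean log2(TPM + 1) of LIF-ESCs minus that of -LIF-ESCs, a scale that understates changes of genes near 1 TPM. A gene was tested when 2 or more of the 6 libraries held 1 TPM of it, and was called when limma gave an adjusted p under 0.05 and the groups were at least 1 apart on the log2 scale. Of 18556 tested genes, 2470 (13.3%) were called higher with LIF and 1502 (8.09%) were called lower. In each of these 3972 genes the libraries of the groups did not overlap, which was also so for 15633 of all genes tested. On the scale of TPM + 1, 149 called genes were at least 8-fold higher and 86 were at least 8-fold lower. On the same scale 54.7% of all genes tested lay within 1.5-fold. Depth did not separate the groups, since the reads recovered from TPM came to 24970733 and 20712941 in -LIF-ESCs and to 22856955 and 21869004 in LIF-ESCs. Pearson's r between replicates, across genes, was 0.987 in both groups. With 2 libraries against 2, an exact two-sided permutation test cannot give a p below 0.333, so each call rests on the spread that limma estimates from the 3 groups together, with a median residual SD of 0.0862.

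The whole distribution lay slightly toward LIF-ESCs. Across the tested genes the log2 fold change had a median of 0.165, with quartiles of -0.34 and 0.66, and 59.0% of genes were above 0. After each library was rescaled by the median ratio of its genes to their geometric mean, the median was 0.012 and the share of higher genes among the calls went from 62.2% to 50.5%. The most abundant genes moved with this shift, as the top 100 of each library held 37.6% and 37.5% of all TPM in -LIF-ESCs and 34.1% and 34.2% in LIF-ESCs. Gene models under 200 exonic bases, whose TPM is raised by the division by length, held much of the total. Their share was 24.5% and 24.1% in -LIF-ESCs and 22.9% in each LIF-ESC library. The top gene was Gm26377 in -LIF-ESCs and Mir5121 in LIF-ESCs. The part of short models in the top 100 was not tested. Because of the shift, each log2 fold change below is to be read against 0.165. The named genes whose call was lost after rescaling are given as such. The 202 genes named below as called had adjusted p-values of 4.5e-07 to 0.0026 in limma.

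**Figure D1:**
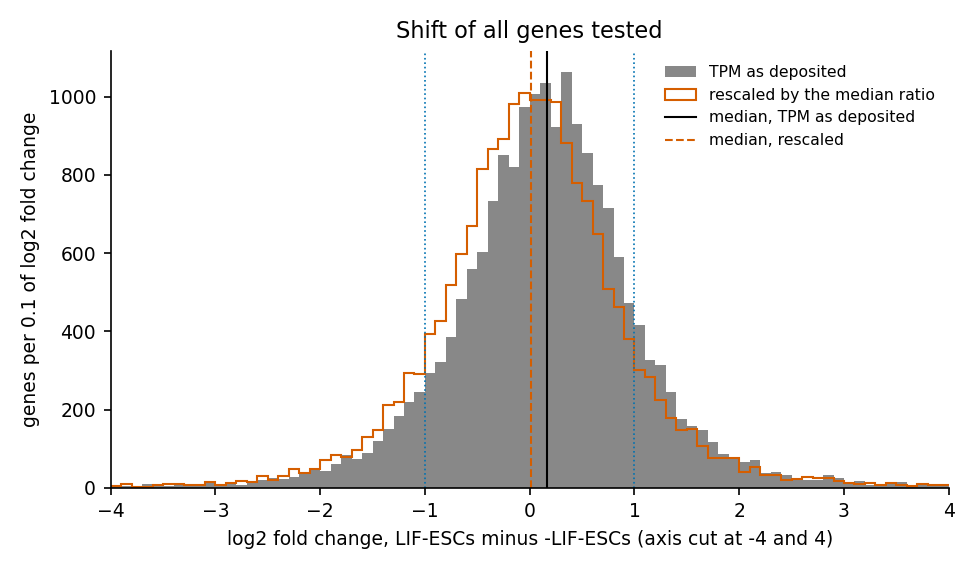
Histogram of the log2 fold change of LIF-ESCs against -LIF-ESCs over the 18556 genes tested (x axis, cut at -4 and 4; y axis, genes per 0.1 of log2 fold change), for TPM as deposited (grey) and after rescaling by the median ratio (orange outline). The vertical lines mark the medians of 0.165 and 0.012, and the dotted lines mark the limits of 1 and -1 for a call.

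Gene programmes were then described with 46 gene lists, each by its calls and its median. The counts of every list are to be read beside the 13.3% of all genes tested that were called higher and the 8.09% called lower. The lists moved in both directions, with 24 of the 46 medians above the median of all genes and the rest at or below it. On this scale the highest medians were those of fibroblast markers, integrated stress response genes, naive pluripotency factors, chemokines and metalloproteinases. Their order depended on the scale, since with voom on recovered reads the median of Hox genes, 2.95, was above that of fibroblast markers, 2.64. The lowest medians were those of cholesterol synthesis, trophoblast, primitive streak and glycolysis genes. In bulk RNA, fewer cells of a type and less RNA per cell cannot be told apart, which holds for every list. Members could also pass the filter through the libraries where they were high. Such members, when near 0 TPM in the other group, could be called in that direction only.

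**Figure D2:**
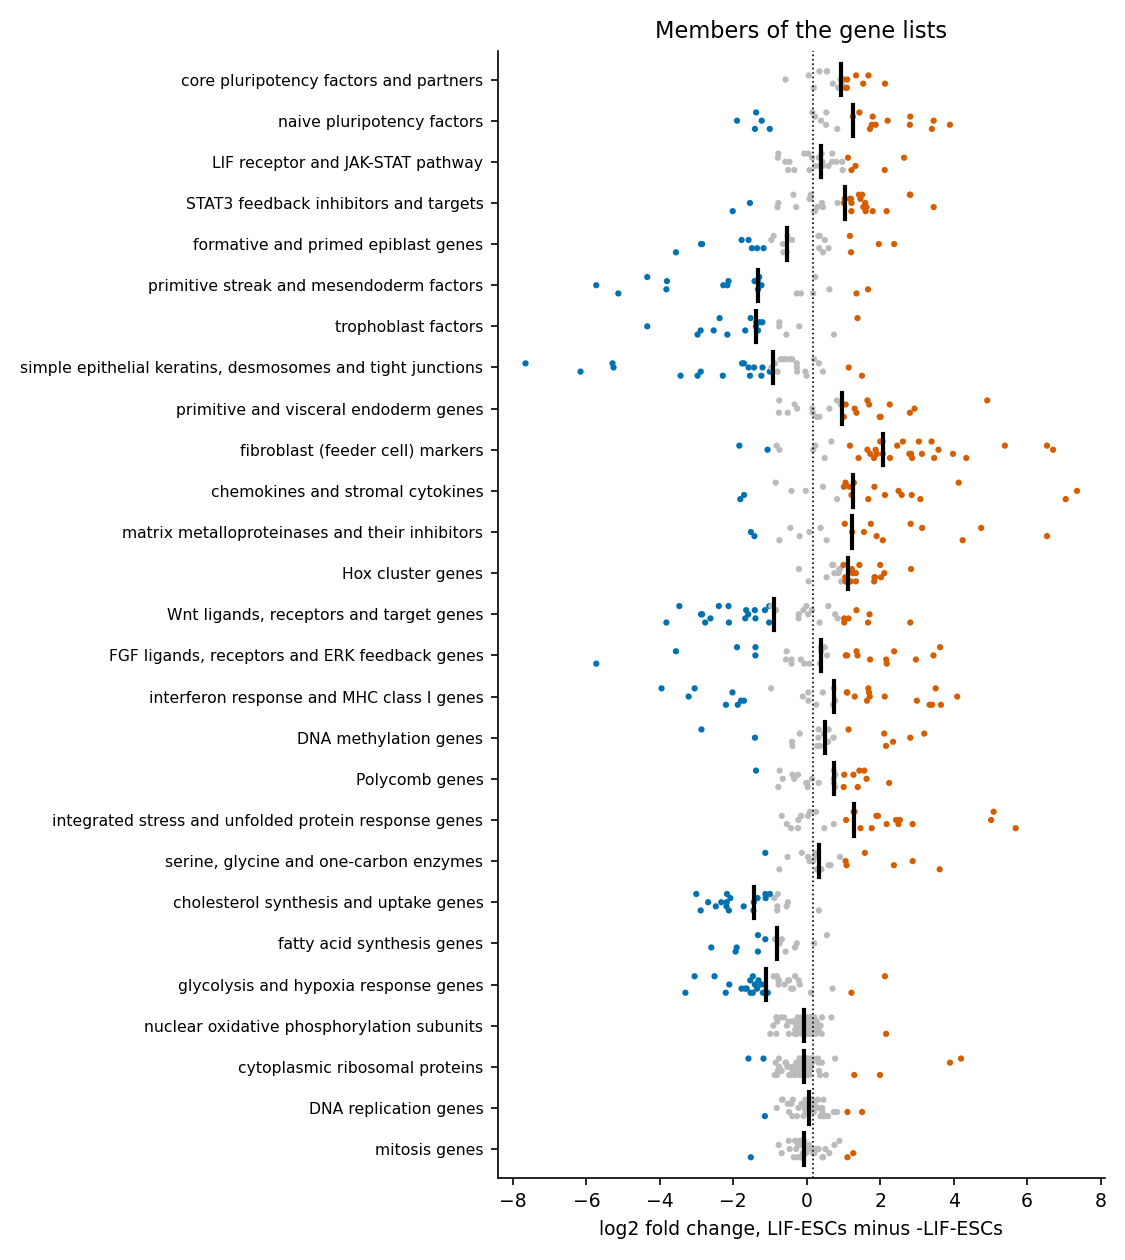
Log2 fold change (x axis) of every tested member of 27 gene lists (rows), with 1 point per gene: orange for called higher in LIF-ESCs, blue for called lower and grey for not called. The black bar is the median of the list and the dotted line the median of all genes tested, 0.165, so that lists whose bar lies left of it, such as cholesterol synthesis, were lower than the genes as a whole.

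Most receptors and kinases of the LIF pathway itself were not called. Of 28 tested genes for ligands, receptors, kinases and STAT factors, 5 (17.9%) were higher and 0 were lower, beside 13.3% and 8.09% of all genes, with a median of 0.39. Lifr, the subunit that binds LIF, was at 5.23 and 5.45 TPM in -LIF-ESCs and 15.6 and 14.3 TPM in LIF-ESCs. Its log2 fold change was 1.33 (SE 0.078), with an adjusted p of 7.1e-05 in limma. Il6st, which encodes the shared subunit gp130, was at 16.1 and 16.6 TPM in -LIF-ESCs and 27.5 and 26.6 TPM in LIF-ESCs, a log2 fold change of 0.69 that did not reach the limit for a call. The kinase Jak1 was close to the median of all genes at a log2 fold change of 0.34. Stat3 itself was at 22.4 and 20.4 TPM in -LIF-ESCs and 43.0 and 42.6 TPM in LIF-ESCs. The groups did not overlap for Stat3, and its log2 fold change of 0.97 (SE 0.055) stayed just under the limit. Osmr, the receptor subunit for OSM, was at 0.131 and 0.151 TPM in -LIF-ESCs and 6.06 and 6.27 TPM in LIF-ESCs, so that the transcript was close to absent in -LIF-ESCs. Transcripts of Lif were also higher in LIF-ESCs, at 18.4 and 18.5 TPM against 7.66 and 7.07 TPM. The defining fibroblast markers given below were also higher in LIF-ESCs, and the part of such cells in the Osmr and Lif values was not tested.

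Genes known as STAT3 targets and feedback inhibitors were mostly higher with LIF. Of 33 tested genes on this list, 18 were higher and 2 lower, with a median of 1.04, and 16 were called higher after rescaling. Socs3, the inhibitor that STAT3 induces against its own kinases, was at 37.2 and 39.3 TPM in -LIF-ESCs and 78.9 and 77.2 TPM in LIF-ESCs. Its log2 fold change of 1.01 fell to 0.84 after rescaling, which lost the call, and the call was also lost when replicate 1 of either group was left out. Cebpb, a factor of the acute phase response, had a log2 fold change of 2.18 (SE 0.21), with 14.1 and 17.6 TPM in -LIF-ESCs and 89.6 and 62.4 TPM in LIF-ESCs. Its LIF-ESC replicates lay apart, yet both stood above the -LIF-ESC libraries. In contrast, Socs1, a second inhibitor of the family, was lower in LIF-ESCs, at 2.42 and 2.25 TPM in LIF-ESCs against 12.7 and 12.3 TPM in -LIF-ESCs, a log2 fold change of -2.02. Rhox5, a homeobox gene of the X chromosome, was lower as well at a log2 fold change of -1.55. Pim3, which encodes a survival kinase, was at 146 and 143 TPM in -LIF-ESCs and 262 and 256 TPM in LIF-ESCs and was not called.

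STAT factors bind the letters TTCNNNGAA, which read the same on both strands. RefSeq promoter windows of GRCm38.p6, reaching from 250 bases before to 50 bases after a start, were at hand for 11174 of the tested genes (60.2%). The motif was present for 8.05% of these genes, for 10.7% of the genes called higher, for 8.65% of those called lower and for 7 of 27 genes (25.9%) of the STAT3 target list. With the narrower TTCCNGGAA, which is contained in the first motif, the shares were 1.49% of all genes and 3 of 27 (11.1%). A match in a window describes letters and does not show binding. Socs3 and Icam1, which encodes an adhesion molecule, are shown because both carried the motif before their start and were called higher. Icam1 was picked for this after its values were seen, with 24.5 and 23.9 TPM in -LIF-ESCs and 51.2 and 50.2 TPM in LIF-ESCs and a log2 fold change of 1.04 that lost its call after rescaling, at 0.87. Capitals mark the motif, which begins 154 bases before the start in Socs3 and 42 bases before it in Icam1.
Socs3, chr11:117969452-117969566, minus strand: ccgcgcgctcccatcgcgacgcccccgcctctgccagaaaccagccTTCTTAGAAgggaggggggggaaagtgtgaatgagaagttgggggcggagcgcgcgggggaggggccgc
Icam1, chr9:21015740-21015939, plus strand: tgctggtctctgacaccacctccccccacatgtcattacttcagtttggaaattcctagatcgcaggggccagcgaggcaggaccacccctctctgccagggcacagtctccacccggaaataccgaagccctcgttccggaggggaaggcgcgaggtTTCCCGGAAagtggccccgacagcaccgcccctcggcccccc

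Naive pluripotency factors were kept up by LIF, with a higher median than the core factors. Of 23 naive factors, 12 were higher and 5 lower in LIF-ESCs, with a median of 1.26 and the same counts after rescaling. Klf4, a zinc finger factor that STAT3 induces, was at 51.2 and 49.7 TPM in -LIF-ESCs and 362 and 358 TPM in LIF-ESCs, a 7.12-fold difference with a log2 fold change of 2.81 (SE 0.031) and an adjusted p of 1.4e-06 in limma. Tfcp2l1, a grainyhead family factor, was at 30.0 and 29.4 TPM in -LIF-ESCs and 106 and 105 TPM in LIF-ESCs, a log2 fold change of 1.80 (SE 0.051). Gbx2, a homeobox gene downstream of STAT3, was at 4.06 and 2.86 TPM in -LIF-ESCs and 47.3 and 47.8 TPM in LIF-ESCs, with a log2 fold change of 3.46 (SE 0.13). Spp1, which encodes the secreted protein osteopontin, was at 102 and 108 TPM in -LIF-ESCs and 1117 and 1131 TPM in LIF-ESCs. For all 4 genes the lowest LIF-ESC library stood far above the highest -LIF-ESC library. Esrrb, an orphan nuclear receptor, had a log2 fold change of 1.43 and Nr0b1, another orphan receptor, of 3.90. Klf2, a relative of Klf4, reached a log2 fold change of 0.83 and Zfp42, the Rex1 marker of naive cells, one of 0.39, and neither was called.

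A minority of the naive list went the other way. Dppa3, a factor that guards the maternal genome against demethylation, was at 100.5 and 108 TPM in -LIF-ESCs and 36.6 and 40.8 TPM in LIF-ESCs, a log2 fold change of -1.41 (SE 0.083). Cdh1, the E-cadherin that holds ESC colonies together, was at 447 and 445 TPM in -LIF-ESCs and 223 and 220 TPM in LIF-ESCs. At a log2 fold change of -1.01 it lay at the limit, and its call was lost in 1 of the 4 fits that leave out a library. Fgfbp1, a carrier of FGF proteins, and Mael, a germline silencing factor, were lower at log2 fold changes of -1.90 and -1.38.

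Among 18 core factors and their partners, 8 were higher and 0 lower, with a median of 0.94, but after rescaling 4 were called. Pou5f1, the Oct4 gene, was at 539.7 and 551 TPM in -LIF-ESCs and 1182 and 1147 TPM in LIF-ESCs, and its log2 fold change of 1.09 fell to 0.92 after rescaling, which lost the call. Sox2 and Nanog were not called at log2 fold changes of 0.71 and -0.58, with Nanog the lower in LIF-ESCs in every library. For Nanog this direction differs from the account of the study, which names it among genes higher in LIF-ESCs by RNA-seq. The study also reports less Nanog protein in -LIF-ESCs, which transcript levels do not measure. Dppa2, a chromatin factor of early embryos, was at 29.1 and 30.7 TPM in -LIF-ESCs and 135 and 134 TPM in LIF-ESCs, a log2 fold change of 2.13 (SE 0.065). L1td1, an RNA-binding protein of pluripotent cells, was at 186 and 193 TPM in -LIF-ESCs and 617 and 599 TPM in LIF-ESCs. Rif1, which controls replication timing and telomere ends, and Sall4, a zinc finger partner of Oct4, were higher at log2 fold changes of 1.54 and 1.34. Trim28, a corepressor of retroviral elements, was among the most abundant of the list and differed by 0.55 on the log2 scale.

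**Figure D3:**
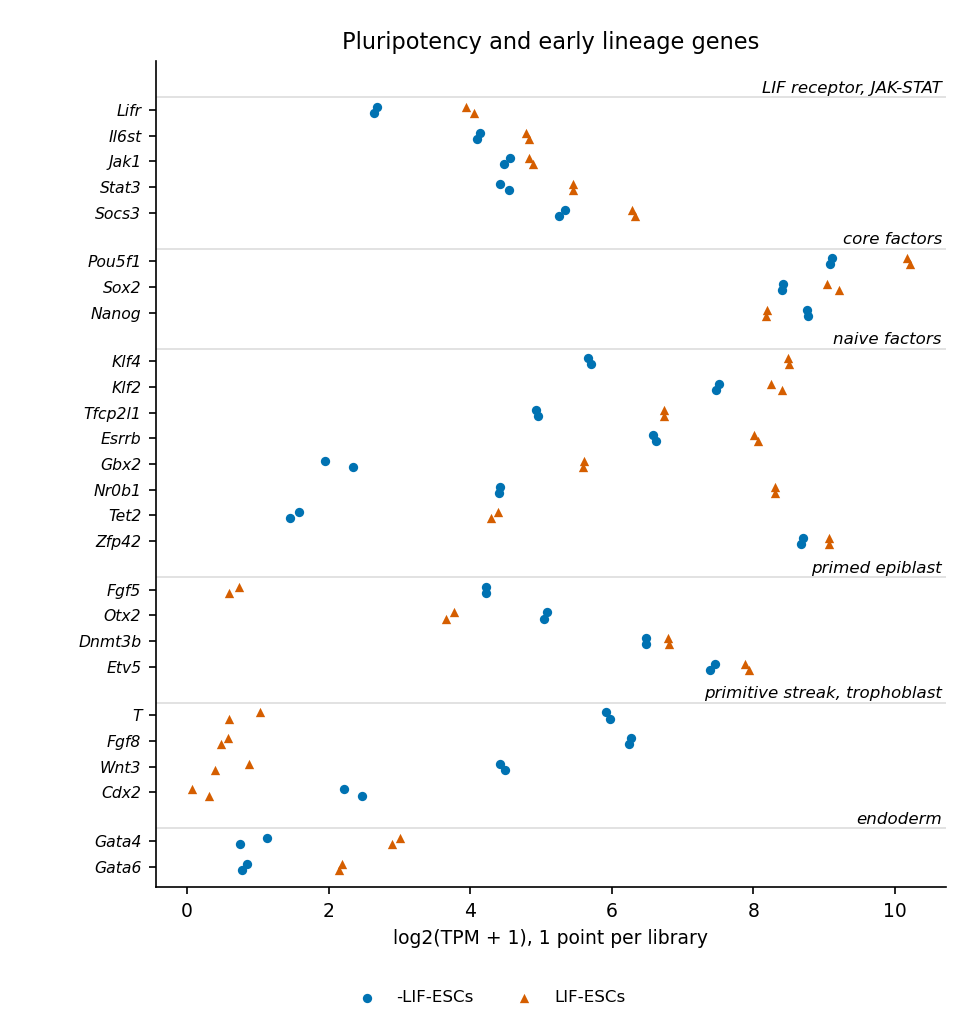
Log2(TPM + 1) (x axis) of pluripotency and early lineage genes (rows) in each library, with circles for the 2 -LIF-ESC and triangles for the 2 LIF-ESC libraries. The groups lie far apart for Klf4, Nr0b1, Fgf5, T and Fgf8 and close together for Zfp42, Dnmt3b and Etv5.

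Genes of the primitive streak were held down with LIF. Of 21 tested factors of the primitive streak and mesendoderm, the first tissue of gastrulation, 14 were lower and 2 higher in LIF-ESCs, with a median of -1.33 before and -1.43 after rescaling. T, the Brachyury factor of early mesoderm, was at 61.9 and 59.4 TPM in -LIF-ESCs and 0.506 and 1.05 TPM in LIF-ESCs. This came to a log2 fold change of -5.13 (SE 0.16) with an adjusted p of 1.2e-05 in limma. Fgf8, a growth factor of the streak, was at 75.04 and 76.3 TPM in -LIF-ESCs and 0.395 and 0.493 TPM in LIF-ESCs. Wnt3, the ligand that starts streak formation, was at 21.4 and 20.4 TPM in -LIF-ESCs and 0.312 and 0.829 TPM in LIF-ESCs, and the factor Hand1 of mesoderm and trophoblast at 26.3 and 28.8 TPM in -LIF-ESCs and 0.480 and 0.333 TPM in LIF-ESCs. In all 4 genes LIF-ESCs stood near or below 1 TPM. Cdx1, a caudal homeobox gene, was among the 2 that were higher, at 9.32 and 10.6 TPM against 2.47 and 2.40 TPM. Snai1, which drives the loss of epithelial shape, and Hhex, a factor of anterior endoderm, had log2 fold changes of 0.23 and -0.16 and were not called.

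Formative and primed epiblast genes, which mark the postimplantation epiblast, split. Of 25 tested, 8 were lower and 4 higher, with a median of -0.55. Fgf5, the usual marker of primed cells, was at 17.7 and 17.8 TPM in -LIF-ESCs and 0.511 and 0.665 TPM in LIF-ESCs, a log2 fold change of -3.56 (SE 0.10). Otx2, a homeobox factor that leads cells out of the naive state, was at 32.0 and 33.0 TPM in -LIF-ESCs and 11.6 and 12.7 TPM in LIF-ESCs, a log2 fold change of -1.35 (SE 0.061). Fzd2, a Wnt receptor, was lower by a similar margin to Wnt8a, a ligand, with log2 fold changes of -2.88 and -2.85, and Sall2, a zinc finger factor, was at -1.77. On the other side, Etv4, an ETS factor under ERK control, was at 13.9 and 13.3 TPM in -LIF-ESCs and 74.8 and 75.2 TPM in LIF-ESCs. Foxd3 and Tcf15, factors with roles in epiblast and early lineage choice, were higher too at log2 fold changes of 1.96 and 1.18, and Tcf15 was close to the limit after rescaling at 1.00. Dnmt3b, the de novo DNA methyltransferase of the epiblast, and Etv5 differed by 0.32 and 0.49 on the log2 scale and were not called.

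Trophoblast factors were mostly lower, with 13 of 19 tested genes lower, 1 higher and a median of -1.37. Cdx2, which sets the trophoblast lineage, was at 4.57 and 3.66 TPM in -LIF-ESCs and 0.236 and 0.0490 TPM in LIF-ESCs, a log2 fold change of -2.16 (SE 0.16). Elf3, an epithelial ETS factor, was at 92.6 and 86.6 TPM in -LIF-ESCs and 16.2 and 13.2 TPM in LIF-ESCs. Krt7, a keratin of trophoblast, and Dlx3, a placental homeobox gene, were lower at log2 fold changes of -2.97 and -2.89. The summed level of 5 trophoblast markers was 72.2 and 74.9 TPM in -LIF-ESCs and 25.5 and 25.9 TPM in LIF-ESCs. Fgfr2, the receptor through which FGF4 acts on trophoblast, was the member that was higher, with 6.88 and 7.18 TPM in -LIF-ESCs and 20.1 and 19.8 TPM in LIF-ESCs. Tfap2c and Ets2, which serve both trophoblast and stem cells, had log2 fold changes of -0.55 and -0.75 and were not called.

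Keratins of simple epithelium were among the genes with the lowest log2 fold changes. Of 34 tested genes for keratins, desmosomes and tight junctions, 16 were lower and 2 higher, with a median of -0.91. Krt8 and Krt18, which pair into the same filaments, lie near each other at chr15:101996698-102004482 and chr15:102028180-102032027 of mm10. Krt8 was at 994 and 969.9 TPM in -LIF-ESCs and 12.6 and 12.8 TPM in LIF-ESCs, a 77.0-fold lower level. Krt18 was at 755 and 776 TPM in -LIF-ESCs and 19.9 and 18.1 TPM in LIF-ESCs, with a log2 fold change of -5.26 (SE 0.052) and an adjusted p of 1e-06 in limma. Krt19, which forms filaments with Krt8, had the lowest log2 fold change of the called genes named here, -7.66 (SE 0.12). Epcam, an adhesion molecule of epithelia and ESCs, was at 272 and 281 TPM in -LIF-ESCs and 238 and 219.8 TPM in LIF-ESCs, a log2 fold change of -0.27 that was not called, and the tight junction gene Cldn4 was at -0.80. The members that were higher were Grhl1, a grainyhead factor, at 9.20 and 9.51 TPM in LIF-ESCs against 2.74 and 2.56 TPM in -LIF-ESCs, and the desmosomal cadherin Dsg2 at a log2 fold change of 1.14, which lost its call after rescaling at 0.98.

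Signalling pathways that pattern the embryo moved gene by gene. Of 36 tested Wnt ligands, receptors and targets, 17 were lower and 7 higher, with a median of -0.90, and 18 were lower and 4 higher after rescaling. Among the ligands, Wnt6 was at 16.2 and 12.9 TPM in -LIF-ESCs and 0.389 and 0.405 TPM in LIF-ESCs, and Wnt3 and Wnt8a, also lower, are given above. The antagonists Sfrp1 and Dkk2 were higher in LIF-ESCs. Sfrp1, which traps Wnt proteins, was at 15.0 and 17.3 TPM in -LIF-ESCs and 55.7 and 54.4 TPM in LIF-ESCs, and Dkk2 at 0.143 and 0 TPM in -LIF-ESCs and 7.68 and 5.57 TPM in LIF-ESCs. Among the Frizzled receptors Fzd5 was higher at a log2 fold change of 1.35, Fzd2 was lower, and Fzd7 differed by 0.59 without a call. The coreceptor Lrp5 was at a log2 fold change of -0.22.

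In the FGF and ERK list 11 of 28 tested genes were higher and 5 lower, with a median of 0.39. Spry4, a feedback inhibitor that ERK induces, was at 3.50 and 3.68 TPM in -LIF-ESCs and 49.1 and 49.3 TPM in LIF-ESCs, a log2 fold change of 3.45 (SE 0.048). Fosl1, an AP-1 subunit under ERK control, was at 0.983 and 1.39 TPM in -LIF-ESCs and 17.0 and 15.2 TPM in LIF-ESCs. Together with Etv4 these response genes stood higher in LIF-ESCs, although Etv5 and Ier2, 2 further response genes, were not called at log2 fold changes of 0.49 and 0.55. Fgf7, a ligand usually made by fibroblasts, had 0 reads in both -LIF-ESC libraries and was at 11.3 and 11.5 TPM in LIF-ESCs, at least 252-fold higher when counted against 3 reads over both libraries. Fgf13, an intracellular relative, was lower at a log2 fold change of -1.40.

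In the Nodal and activin list 6 of 23 genes were higher (4 after rescaling) and 2 lower, with a median of 0.21. The activin subunits stood out, with Inhba at 0.498 and 0.504 TPM in -LIF-ESCs and 42.3 and 42.1 TPM in LIF-ESCs and Inhbb at 1.31 and 1.44 TPM in -LIF-ESCs and 21.2 and 21.2 TPM in LIF-ESCs. Their log2 fold changes were 4.85 (SE 0.071) and 3.22 (SE 0.062). Pcsk6, a protease that matures Nodal, and Smad7, an inhibitor of the pathway, were higher at log2 fold changes of 1.56 and 1.54. Tdgf1, the coreceptor Cripto, and Lefty2, a Nodal antagonist, were not called at log2 fold changes of 0.96 and -0.14. For BMP signalling, 8 of 25 genes were lower and 2 higher, with a median of -0.32. Bmp2 was at 8.67 and 7.62 TPM in -LIF-ESCs and 1.17 and 0.935 TPM in LIF-ESCs and Bmp7 at 9.32 and 8.64 TPM in -LIF-ESCs and 1.25 and 1.30 TPM in LIF-ESCs. The BMP antagonists went in both directions. Nog, or noggin, was at 27.7 and 31.1 TPM in -LIF-ESCs and 2.64 and 1.31 TPM in LIF-ESCs, while Grem1 was at 0.703 and 0.907 TPM in -LIF-ESCs and 121 and 114 TPM in LIF-ESCs. The receptor Bmpr1a and the ubiquitin ligase Smurf1 were not called at log2 fold changes of -0.19 and 0.90.

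Notch and retinoid lists had medians near or under that of all genes, -0.13 and 0.03, and the retinoid median turned below 0 after rescaling. Of 17 Notch genes, 1 was higher and 4 lower. Rbpj, the DNA-binding partner of Notch, was the higher one, at 29.6 and 29.1 TPM in -LIF-ESCs and 95.5 and 92.6 TPM in LIF-ESCs. Notch3 and the ligand Dll3 were lower at log2 fold changes of -1.53 and -1.49, and the target Hes1 and the coactivator Maml1 were not called at -0.82 and 0.63. Of 18 retinoid genes, 3 were higher and 4 lower. Rarg, a retinoic acid receptor, was at 22.2 and 24.0 TPM in -LIF-ESCs and 98.8 and 93.4 TPM in LIF-ESCs, and Stra8, a retinoid target of the germline, was higher at a log2 fold change of 1.20. Rdh10, which makes retinal, and Tgm2, a transglutaminase that retinoids induce, were lower at log2 fold changes of -1.44 and -1.15.

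Several lineage genes stood higher with LIF, and of these Gata4 and Gata6 were at low levels. Of 24 tested genes of the primitive and visceral endoderm, 12 were higher and 0 lower, with a median of 0.97. Gata4, a zinc finger factor of primitive endoderm, was at 0.679 and 1.18 TPM in -LIF-ESCs and 6.44 and 7.01 TPM in LIF-ESCs, and Gata6, a factor of the same lineage, at 0.719 and 0.807 TPM in -LIF-ESCs and 3.44 and 3.58 TPM in LIF-ESCs. Their log2 fold changes were 2.01 (SE 0.15) and 1.35 (SE 0.10). Summed over 6 primitive endoderm markers, the level was 8.43 and 9.91 TPM in -LIF-ESCs and 28.4 and 28.5 TPM in LIF-ESCs, with 4 of the 6 called higher. Pdgfra, among the 6, is also on the list of fibroblast markers given below. Defining fibroblast markers were also higher in LIF-ESCs, and the part of such cells in these values was not tested. The visceral endoderm markers Afp, Ttr and Hnf4a were under 1 TPM in all 4 libraries. Of genes that endoderm shares with other cells, Thbd, or thrombomodulin, was at 0.332 and 0.375 TPM in -LIF-ESCs and 39.8 and 40.0 TPM in LIF-ESCs, and Srgn, a proteoglycan of secretory granules, at 0.281 and 0.685 TPM in -LIF-ESCs and 9.61 and 10.9 TPM in LIF-ESCs. Lama1, a laminin chain of the basement membrane, was at 4.55 and 3.53 TPM in -LIF-ESCs and 33.8 and 34.6 TPM in LIF-ESCs. Sparc and Serpinh1, both abundant matrix genes, were not called at log2 fold changes of -0.52 and 0.27.

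Hox genes pattern the body axis and are largely silent in ESCs. Of 26 tested members, 16 were higher and 0 lower. The median was 1.13 (1.24 when genes without reads in -LIF-ESCs were set at their bound). A member could pass the filter through LIF-ESC and OSM libraries alone, and one near 0 TPM in -LIF-ESCs could not be called lower. The 0 lower calls and the median therefore depend in part on the filter and the low levels. With no filter the median was 0.87, with 16 higher and 0 lower. The defining fibroblast markers, at 45.4 and 40.9 TPM in -LIF-ESCs and 228 and 226 TPM in LIF-ESCs, moved in the same direction, and their part in the Hox values was not tested. The Hox levels remained low, since all members together summed to 15.3 and 15.0 TPM in -LIF-ESCs and to 72.3 and 72.1 TPM in LIF-ESCs. Hoxb9 was at 0.721 and 0.209 TPM in -LIF-ESCs and 8.53 and 10.2 TPM in LIF-ESCs and Hoxc13 at 0.574 and 0.961 TPM in -LIF-ESCs and 5.72 and 5.04 TPM in LIF-ESCs, with log2 fold changes of 2.84 (SE 0.19) and 1.86 (SE 0.14). Hoxd8 was at 0.676 and 0.744 TPM in -LIF-ESCs and 2.14 and 2.10 TPM in LIF-ESCs and was not called at a log2 fold change of 0.87. Neural genes were divided, with 4 of 14 higher and 4 lower. Olig2, a factor of motor neuron and glial precursors, was at 0.0362 and 0.0441 TPM in -LIF-ESCs and 19.6 and 19.5 TPM in LIF-ESCs, whereas Nes, or nestin, was lower at 31.3 and 31.9 TPM in -LIF-ESCs and 12.7 and 12.6 TPM in LIF-ESCs. Ncam1, an adhesion molecule, was higher at a log2 fold change of 1.85, Msx2, a target of BMP in neural crest, lower at -1.86, and Tubb3 and Neurod1, a tubulin and a factor of neurons, were not called at 0.78 and 0.88. Summed over the neural markers, the level was 61.7 and 59.7 TPM in -LIF-ESCs and 70.0 and 67.0 TPM in LIF-ESCs. Of 17 mesoderm and cardiovascular genes, 5 were higher and 4 lower. Prrx1, of limb and connective tissue mesenchyme, was at 0.0399 and 0.155 TPM in -LIF-ESCs and 15.9 and 16.8 TPM in LIF-ESCs, and Twist1, of the same tissues, at 3.58 and 4.03 TPM in -LIF-ESCs and 19.3 and 17.2 TPM in LIF-ESCs. Both genes are also expressed by fibroblasts, whose defining markers were higher in LIF-ESCs as given above, and the part of such cells was not tested. Actc1, the cardiac actin, was at 12.8 and 12.3 TPM in -LIF-ESCs and 0.132 and 0 TPM in LIF-ESCs. Myl7, an atrial myosin chain, was at 16.9 and 9.47 TPM in -LIF-ESCs and 1.81 and 3.19 TPM in LIF-ESCs, with a wide spread between replicates in both groups. Etv2, of blood and vessel precursors, was lower at a log2 fold change of -1.81, and Pecam1, a vessel marker that ESCs also express, was not called at 0.53. The vessel markers Cdh5 and Kdr were under 1 TPM in all 4 libraries.

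Genes of fibroblasts and their matrix were higher with LIF. Of 34 tested fibroblast markers, 26 were higher and 2 lower, with a median of 2.07 that was 1.91 after rescaling, and 26 were called higher after rescaling too. Summed over 8 defining markers, the level was 45.4 and 40.9 TPM in -LIF-ESCs and 228 and 226 TPM in LIF-ESCs, and 7 of the 8 were called higher. Col1a1, a chain of type I collagen, was at 25.02 and 22.8 TPM in -LIF-ESCs and 86.4 and 88.6 TPM in LIF-ESCs, a log2 fold change of 1.83 (SE 0.055). Col3a1, the chain of type III collagen, was at 0.477 and 0.449 TPM in -LIF-ESCs and 17.0 and 16.2 TPM in LIF-ESCs. Thy1, a surface protein of fibroblasts, was at 7.96 and 5.78 TPM in -LIF-ESCs and 46.9 and 46.7 TPM in LIF-ESCs, and Dcn, or decorin, at 0.0756 and 0.0368 TPM in -LIF-ESCs and 10.5 and 10.9 TPM in LIF-ESCs. Pdgfrb, the defining marker that was not called, was at 5.92 and 5.91 TPM in -LIF-ESCs and 7.20 and 7.02 TPM in LIF-ESCs. The whole list, which includes genes abundant in many cells, summed to 1038 and 1000 TPM in -LIF-ESCs and to 2104 and 2103 TPM in LIF-ESCs. Feeder cells of the first passages were fibroblasts, and the part of remaining fibroblasts in these values, and in those of secreted, matrix and mesenchymal genes of the other lists, was not tested.

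Within the fibroblast list, Lox, the enzyme that crosslinks collagen, was at 0.0735 and 0.0894 TPM in -LIF-ESCs and 112 and 112 TPM in LIF-ESCs, a log2 fold change of 6.71 (SE 0.045). Fbln2, the matrix protein fibulin 2, was at 1.73 and 1.82 TPM in -LIF-ESCs and 116 and 116 TPM in LIF-ESCs, a 65.2-fold difference. Thbs2, a thrombospondin, was at 0.731 and 0.853 TPM in -LIF-ESCs and 36.2 and 34.6 TPM in LIF-ESCs. In these 3 genes the -LIF-ESC libraries lay below 2 TPM. Fn1 and Vim, fibronectin and vimentin, are abundant in many cells and were not called at log2 fold changes of 0.67 and 0.49. Cnn1 and Tagln, which belong to contractile cells, were lower in LIF-ESCs at log2 fold changes of -1.83 and -1.07. Outside the lists, Mgp, a matrix protein that blocks calcification, had 0 reads in -LIF-ESCs and was at 48.1 and 44.5 TPM in LIF-ESCs, at least 374-fold higher against 3 reads over both libraries.

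Chemokines and other stromal cytokines followed the same direction, with 15 of 22 tested genes higher, 2 lower and a median of 1.25 (1.48 with genes at 0 reads set at their bound). Ccl2 and Ccl7, which attract monocytes, lie next to each other at chr11:82035571-82037453 and chr11:82045712-82047525 of mm10. Ccl2 was at 0.388 and 0.283 TPM in -LIF-ESCs and 174 and 178 TPM in LIF-ESCs. Ccl7 had 0 reads in -LIF-ESCs and 167 and 159 TPM in LIF-ESCs, at least 890.4-fold higher. Il1rl1, the interleukin 33 receptor, was at 0.0512 and 0.0312 TPM in -LIF-ESCs and 17.2 and 17.4 TPM in LIF-ESCs, and Cxcl1, which attracts neutrophils, at 0.424 and 0.860 TPM in -LIF-ESCs and 12.6 and 13.2 TPM in LIF-ESCs. The membrane-bound chemokines Cxcl16 and Cx3cl1 were the 2 that were lower, at log2 fold changes of -1.81 and -1.71. Igf2, a fetal growth factor, and Cxcl10, an interferon-induced chemokine, were not called at log2 fold changes of 0.83 and -0.41.

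Matrix metalloproteinases and their inhibitors had 11 of 19 tested genes higher and 2 lower, with a median of 1.24. Mmp13, Mmp3 and Mmp10 lie in 1 cluster on mm10, at chr9:7272514-7283331, chr9:7445822-7455975 and chr9:7502352-7510240. Mmp3, or stromelysin 1, had 0 reads in -LIF-ESCs and was at 89.7 and 94.9 TPM in LIF-ESCs, at least 1132-fold higher. Mmp10, or stromelysin 2, likewise had 0 reads in -LIF-ESCs and was at 27.1 and 24.8 TPM in LIF-ESCs, at least 304-fold higher. Mmp13, a collagenase, was at 0 and 0.0402 TPM in -LIF-ESCs and 18.3 and 18.4 TPM in LIF-ESCs. Timp1, the inhibitor of these enzymes, was at 29.8 and 24.9 TPM in -LIF-ESCs and 244 and 254 TPM in LIF-ESCs, a log2 fold change of 3.14 (SE 0.085). The membrane-bound Mmp15 and Mmp25 were lower at log2 fold changes of -1.52 and -1.42, while the gelatinase Mmp2 was at 40.4 and 38.2 TPM in -LIF-ESCs and 23.0 and 23.1 TPM in LIF-ESCs and was not called. Of 26 integrins, laminins and their ligands, 9 were higher and 2 lower, and 5 were called higher after rescaling. Tnc, the matrix protein tenascin C, was at 2.51 and 2.14 TPM in -LIF-ESCs and 197 and 194 TPM in LIF-ESCs. Nid1, which links laminin to collagen, was higher at a log2 fold change of 1.65, and Itga5, the fibronectin receptor subunit, lost its call after rescaling, going from 1.16 to 0.99. The epithelial laminin receptor Itga3 and the laminin chain Lamb3 were lower at log2 fold changes of -2.42 and -1.67. The same summed fibroblast level of 228 and 226 TPM in LIF-ESCs stands beside these results.

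**Figure D4:**
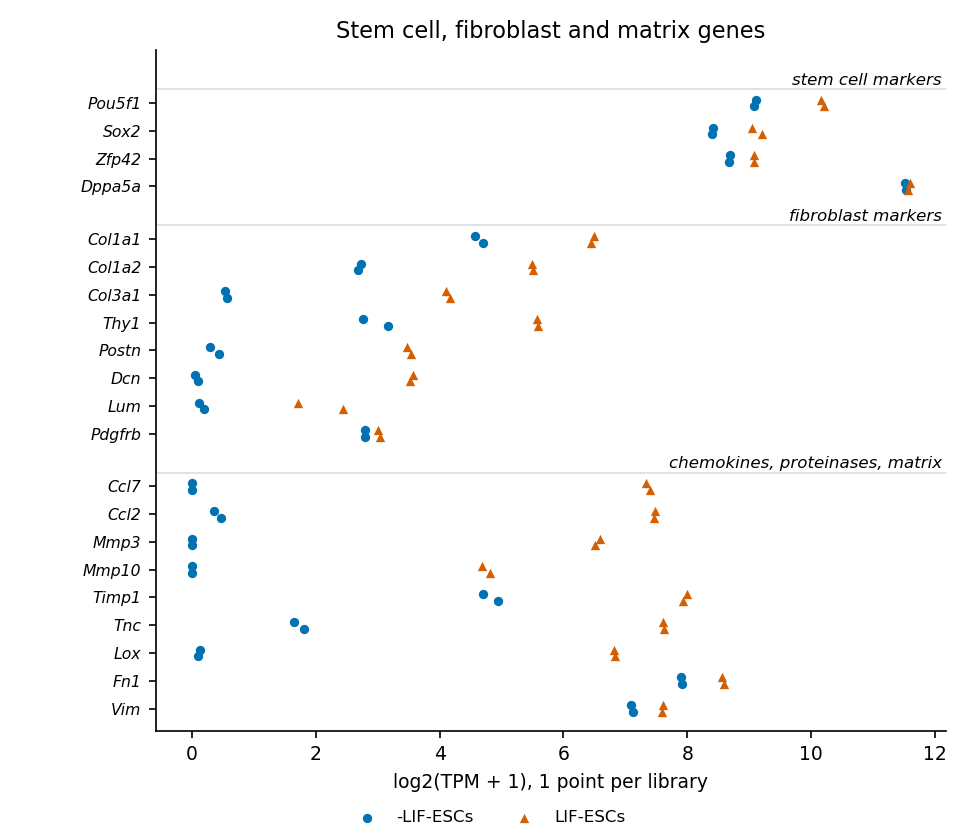
Log2(TPM + 1) (x axis) of stem cell markers, fibroblast markers and chemokine, proteinase and matrix genes (rows) in each library, with circles for the 2 -LIF-ESC and triangles for the 2 LIF-ESC libraries. Ccl7, Mmp3 and Mmp10 sit at 0 in both -LIF-ESC libraries, while the groups lie close together for Pdgfrb.

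Interferon response genes moved both ways. Of 31 tested, 14 were higher and 8 lower, with a median of 0.74. The higher members included antiviral effectors. Oas2, an enzyme that senses double-stranded RNA, was at 0.794 and 0.845 TPM in -LIF-ESCs and 22.4 and 21.4 TPM in LIF-ESCs, and Usp18, which removes ISG15 and dampens the receptor, at 5.83 and 6.47 TPM in -LIF-ESCs and 77.6 and 83.2 TPM in LIF-ESCs. Ifit1 and Ifit3, which bind viral RNA, had log2 fold changes of 3.41 and 4.10, values that are uncertain where reads match close copies of these genes. The lower members included genes of antigen processing and a factor known to control them. Irf1, that factor, was at 91.2 and 92.2 TPM in -LIF-ESCs and 10.2 and 10.1 TPM in LIF-ESCs, a log2 fold change of -3.05 (SE 0.055). Psmb8, a subunit of the immunoproteasome, was at 77.2 and 70.6 TPM in -LIF-ESCs and 6.31 and 7.86 TPM in LIF-ESCs, and Tap2, a peptide transporter, at 31.8 and 33.4 TPM in -LIF-ESCs and 7.53 and 5.28 TPM in LIF-ESCs. Gbp2, a guanylate-binding protein, was at 327 and 334 TPM in -LIF-ESCs and 21.2 and 19.6 TPM in LIF-ESCs, with the same reservation about close copies. Bst2 and Ifitm2, 2 abundant members, were not called at log2 fold changes of 0.26 and -0.11. The STAT motif TTCNNNGAA was found in the window of 6 of 24 genes of this list (25%), among them Irf1 and Psmb8, where it begins 90 and 97 bases before the start.

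Of 20 tested genes that write, read or remove DNA methylation, 6 were higher and 2 lower, with a median of 0.50. Dnmt3l, the cofactor of the de novo methyltransferases, was at 37.0 and 37.3 TPM in -LIF-ESCs and 348 and 351 TPM in LIF-ESCs, a log2 fold change of 3.20 (SE 0.031) with an adjusted p of 9.8e-07 in limma. Tet1 and Tet2, which oxidise 5-methylcytosine, had log2 fold changes of 2.35 and 2.82, with Tet1 at 17.2 and 17.5 TPM in -LIF-ESCs and 93.5 and 91.8 TPM in LIF-ESCs and Tet2 at 1.74 and 2.01 TPM in -LIF-ESCs and 18.6 and 19.9 TPM in LIF-ESCs. Zfp57, which protects methylation at imprints, was at 31.1 and 32.5 TPM in -LIF-ESCs and 148 and 143 TPM in LIF-ESCs. Gadd45b, linked to active demethylation and stress, was lower, at 97.7 and 100 TPM in -LIF-ESCs and 11.1 and 14.4 TPM in LIF-ESCs. Uhrf1, the partner of the maintenance methyltransferase, was not called at a log2 fold change of 0.33. The cofactor and the oxidising enzymes had larger log2 fold changes than Dnmt3b or Uhrf1.

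Of 25 tested Polycomb genes, which keep developmental genes silent, 8 were higher and 1 lower, with a median of 0.73. Bmi1, a subunit of Polycomb complex 1, was at 2.38 and 2.14 TPM in -LIF-ESCs and 14.1 and 14.7 TPM in LIF-ESCs. Eed, Jarid2 and Epop of Polycomb complex 2 were higher at log2 fold changes of 1.63, 1.56 and 1.43, while Suz12 of the same complex was not called at -0.39 and Pcgf5 was lower at -1.38. Imprinted genes, expressed from 1 parental copy, had a median of 0.01 that became -0.15 after rescaling, with 7 of 26 higher and 6 lower. H19, a maternally expressed RNA, was at 825 and 834 TPM in -LIF-ESCs and 64.5 and 64.0 TPM in LIF-ESCs, and Igf2, its paternally expressed neighbour, is given above without a call. Peg10, a gene of retroviral origin, was at 669.8 and 698 TPM in -LIF-ESCs and 52.2 and 54.0 TPM in LIF-ESCs, and Peg3 and Mest were lower at log2 fold changes of -2.56 and -1.36. Grb10, an adaptor that restrains growth signals, was at 2.68 and 3.64 TPM in -LIF-ESCs and 153 and 148 TPM in LIF-ESCs. Meg3 and Mirg, RNAs of 1 imprinted cluster, were both higher, at log2 fold changes of 1.39 and 1.49. The abundant Snrpn and Impact were not called at log2 fold changes of -0.50 and 0.22.

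Germline genes had 4 of 26 higher and 7 lower, with a median of -0.41 that was 0.07 over the members left by a filter of 5 TPM. Dazl, an RNA-binding protein of germ cells, was at 12.97 and 13.1 TPM in -LIF-ESCs and 3.19 and 3.43 TPM in LIF-ESCs, and Dnd1, another, was lower at a log2 fold change of -1.58. Piwil2, Tdrd12, Hormad1 and Taf7l, of piRNA defence, meiosis and spermatogenesis, were higher at log2 fold changes of 1.41, 1.28, 1.32 and 1.30. Tex19.1 and Sycp3 were not called at log2 fold changes of -0.58 and 0.65. Of 27 listed genes of the 2-cell embryo, 22 were in the table, of which 3 passed the filter on low values and 0 were called. Zscan4c, the marker of the 2-cell-like state, was at 0.466 and 0.378 TPM in -LIF-ESCs and 0.0468 and 0.146 TPM in LIF-ESCs, too low to be tested and part of a family of near-identical copies.

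Proliferation programmes differed little, beside 21.4% of all genes tested that were called either way. In DNA replication, 2 of 39 genes were higher and 1 lower, and in mitosis 2 of 38 were higher and 1 lower, with medians of 0.06 (-0.11 after rescaling) and -0.07. Pola1, the catalytic subunit of polymerase alpha, was at 14.5 and 15.6 TPM in -LIF-ESCs and 44.96 and 44.3 TPM in LIF-ESCs, and Pole of polymerase epsilon was higher at a log2 fold change of 1.11 with a call that was lost after rescaling at 0.94. Rfc3, of the clamp loader, was lower at a log2 fold change of -1.14, and Mcm3, of the replicative helicase, was not called at -0.48. Aurkb, the kinase that corrects attachments of chromosomes, was at 91.5 and 94.4 TPM in -LIF-ESCs and 31.7 and 31.8 TPM in LIF-ESCs. Kif11, a spindle motor, was higher at a log2 fold change of 1.27, Spc24, of the kinetochore, lost its call of 1.11 after rescaling at 0.94, and Top2a was not called at -0.32. Of 22 G1 cyclins and CDK inhibitors, 4 were higher (2 after rescaling) and 0 lower, with a median of 0.44. Ccnd2, or cyclin D2, was at 7.63 and 7.79 TPM in -LIF-ESCs and 26.3 and 25.6 TPM in LIF-ESCs. The inhibitor Cdkn2b was higher at a log2 fold change of 1.25 (SE 0.19) but lost its call when a library was left out, and Cdkn1b and Ccne1 lost theirs after rescaling, at 0.90 and 0.89. Cdk4 and Cdkn1a were not called at log2 fold changes of 0.76 and 0.39.

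In the Myc and Max network 3 of 13 genes were higher and 1 lower, with a median of 0.38. Myc was at 10.6 and 9.61 TPM in -LIF-ESCs and 34.1 and 30.9 TPM in LIF-ESCs and Mycn at 78.9 and 80.5 TPM in -LIF-ESCs and 264 and 257 TPM in LIF-ESCs, with log2 fold changes of 1.59 (SE 0.072) and 1.70 (SE 0.032). Mga, a repressor that shares their partner, was higher at a log2 fold change of 1.22, Mxi1, an antagonist, lower at -1.12, and Max and Mlx were not called at 0.41 and -0.75. Of 18 telomerase and shelterin genes, 3 were higher and 1 lower, with a median of -0.20, and 2 were higher and 2 lower after rescaling. Tert, the catalytic subunit of telomerase, was at 7.80 and 6.73 TPM in -LIF-ESCs and 5.04 and 5.82 TPM in LIF-ESCs and was not called at a log2 fold change of -0.36. Rtel1, a helicase of telomeres, was higher at a log2 fold change of 1.48, and Pot1b, a shelterin subunit, lost its call of 1.10 after rescaling at 0.96. Terf1, which binds the telomere repeat, was lower, at 82.0 and 92.4 TPM in -LIF-ESCs and 37.7 and 35.1 TPM in LIF-ESCs. Nhp2 and Gar1, of the telomerase particle, were not called at log2 fold changes of -0.86 and 0.50, although Nhp2 passed the limit after rescaling at -1.03.

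Among p53 and its targets 3 of 24 (12.5%) were higher and 2 (8.33%) lower, with a median of 0.38. These shares were close to the 13.3% and 8.09% of all genes tested. Sesn2, which also answers amino acid stress, was at 42.6 and 41.4 TPM in -LIF-ESCs and 238 and 225 TPM in LIF-ESCs, and Gdf15, a stress cytokine, at 2.62 and 2.73 TPM in -LIF-ESCs and 16.1 and 18.2 TPM in LIF-ESCs. Btg2, which slows division, was at 117 and 122 TPM in -LIF-ESCs and 36.1 and 35.6 TPM in LIF-ESCs. The remaining calls, Eda2r at a log2 fold change of 1.01 and Sesn1 at -1.15, were lost in fits that leave out a library, and Eda2r also after rescaling at 0.84. Bax, which opens mitochondria in apoptosis, and Ccng1 were not called at log2 fold changes of 0.77 and -0.43. In the Bcl2 family 2 of 15 genes were higher and 2 lower, 13.3% each, beside the same 13.3% and 8.09% of all genes tested. Hrk, a BH3-only activator of death, was at 0.591 and 0.284 TPM in -LIF-ESCs and 29.0 and 28.2 TPM in LIF-ESCs, and Mcl1, a survival factor, at 234 and 247 TPM in -LIF-ESCs and 565 and 548 TPM in LIF-ESCs. Bok was lower at a log2 fold change of -1.74 and Bak1 was not called at -0.47.

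Genes of lipid and sugar metabolism were lower with LIF. Of 25 genes for cholesterol synthesis and uptake, 18 were lower and 0 higher in LIF-ESCs, with a median of -1.44 that was -1.57 after rescaling, and 24 of the 25 had an adjusted p under 0.05 with a negative log2 fold change. Hmgcs1, which feeds the mevalonate route, was at 221 and 231 TPM in -LIF-ESCs and 28.3 and 31.0 TPM in LIF-ESCs, a 7.61-fold lower level with a log2 fold change of -2.89 (SE 0.054) and an adjusted p of 3.5e-06 in limma. Dhcr7, the last enzyme of the route, was at 42.0 and 40.0 TPM in -LIF-ESCs and 5.35 and 5.74 TPM in LIF-ESCs, and Fdps, which makes farnesyl pyrophosphate, at 115 and 112 TPM in -LIF-ESCs and 19.15 and 20.1 TPM in LIF-ESCs. In each of these 3 genes both LIF-ESC libraries lay far below both -LIF-ESC libraries. Cyp51, a further enzyme of the route, was not called at a log2 fold change of -0.80. Fatty acid synthesis genes followed, with 6 of 14 lower, 0 higher and a median of -0.80. Srebf1, the factor that drives them, was at 38.3 and 37.9 TPM in -LIF-ESCs and 14.1 and 15.1 TPM in LIF-ESCs. Fads2, Scd1 and Scd2, which place double bonds in fatty acids, were lower at log2 fold changes of -2.60, -1.94 and -1.91. Elovl5 and Elovl6, which lengthen fatty acids, were not called at log2 fold changes of -0.86 and 0.55.

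Glycolysis and hypoxia response genes were lower in 19 of 36 tested members and higher in 2, with a median of -1.11. Their summed level was 12012 and 11976 TPM in -LIF-ESCs and 6155 and 6142 TPM in LIF-ESCs. Slc2a1, the glucose transporter, was at 698 and 674 TPM in -LIF-ESCs and 148 and 147 TPM in LIF-ESCs, a log2 fold change of -2.21 (SE 0.033). Slc16a3, which exports lactate, was at 189 and 176 TPM in -LIF-ESCs and 18.2 and 17.0 TPM in LIF-ESCs, a 10.4-fold lower level. Aldoc, an aldolase, was at 50.4 and 51.0 TPM in -LIF-ESCs and 5.26 and 5.20 TPM in LIF-ESCs, and Ankrd37, a hypoxia-induced gene, at 17.8 and 20.2 TPM in -LIF-ESCs and 2.22 and 2.81 TPM in LIF-ESCs. The abundant enzymes Pkm and Eno1 were lower in every LIF-ESC library but under the limit, at log2 fold changes of -0.60 and -0.81. The exceptions were Hif1a, the hypoxia factor itself, and Vegfa, a growth factor of vessels that it induces. Hif1a was at 41.2 and 43.0 TPM in -LIF-ESCs and 102 and 96.98 TPM in LIF-ESCs and Vegfa at 15.2 and 14.2 TPM in -LIF-ESCs and 67.2 and 68.3 TPM in LIF-ESCs, both higher with LIF.

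Motifs of other factors were searched after the lists had been seen. Hypoxia factors bind the letters ACGTG, which are also part of the Myc site CACGTG. On either strand they were found in the windows of 22 of 32 genes of the glycolysis and hypoxia list (68.8%) and of 29% of all genes with a window. Shares were also high in lists without such a role, at 65% for germline genes and 58.3% for the Myc and Max network. The sterol factor motif TCACNCCAC was found for 1 of 17 genes of the cholesterol list, Hmgcs1, and for 1.49% of all. Slc16a3 and Pgk1, a glycolytic kinase, are shown for the first motif and Hmgcs1 for the second. Pgk1 was picked for this after its values were seen, with 1254 and 1290 TPM in -LIF-ESCs and 568 and 578 TPM in LIF-ESCs and a log2 fold change of -1.15. Capitals mark the motifs, which begin 27 bases before the start in Slc16a3, 150 and 131 bases before it in Pgk1 and 137 bases before it in Hmgcs1.
Slc16a3, chr11:120948867-120949052, plus strand: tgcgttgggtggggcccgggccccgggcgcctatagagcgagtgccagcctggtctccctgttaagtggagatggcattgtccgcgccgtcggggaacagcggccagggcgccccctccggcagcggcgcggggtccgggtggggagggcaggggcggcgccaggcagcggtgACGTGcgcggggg
Pgk1, chrX:106186900-106187099, plus strand: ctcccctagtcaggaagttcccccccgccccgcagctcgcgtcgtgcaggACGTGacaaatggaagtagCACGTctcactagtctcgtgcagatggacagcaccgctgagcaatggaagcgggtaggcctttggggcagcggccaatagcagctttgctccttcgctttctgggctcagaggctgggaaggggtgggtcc
Hmgcs1, chr13:119690151-119690350, plus strand: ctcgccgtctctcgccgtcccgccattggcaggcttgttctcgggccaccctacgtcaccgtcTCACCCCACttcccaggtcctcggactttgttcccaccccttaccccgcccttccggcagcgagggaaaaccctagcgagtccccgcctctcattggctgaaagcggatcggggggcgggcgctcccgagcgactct

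**Figure D5:**
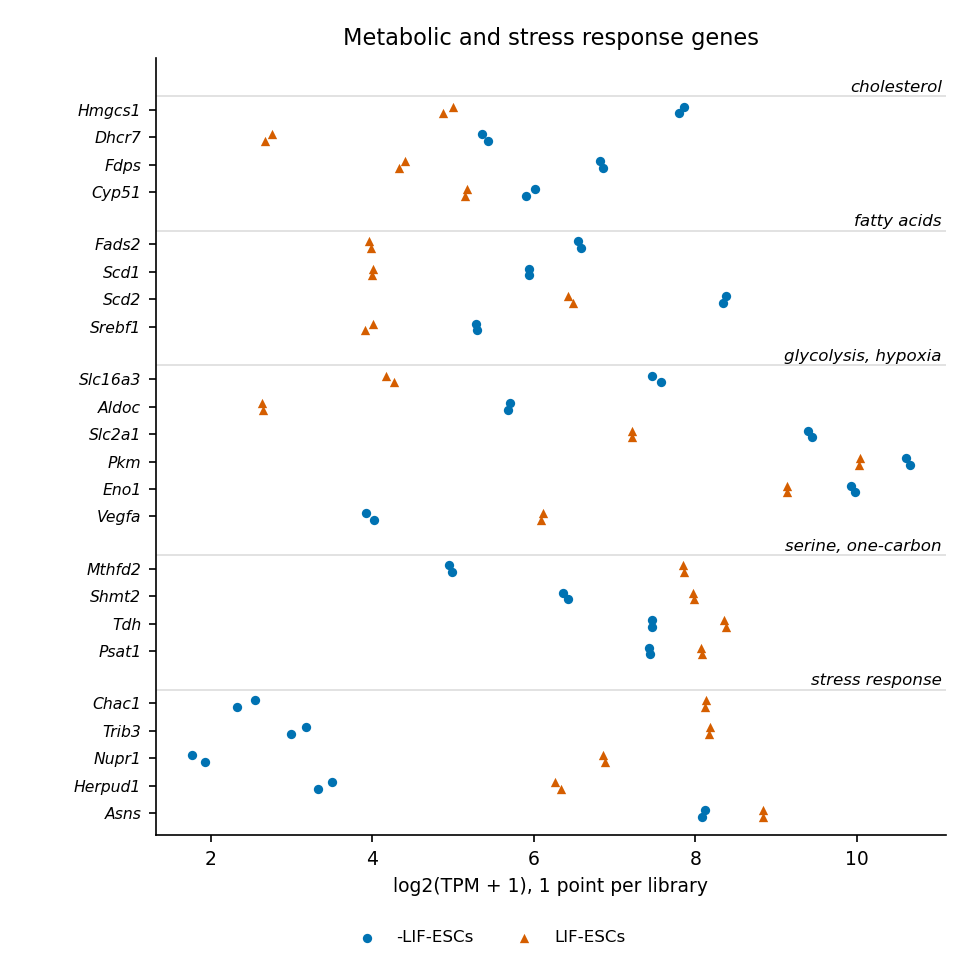
Log2(TPM + 1) (x axis) of lipid, glycolysis, one-carbon and stress response genes (rows) in each library, with circles for the 2 -LIF-ESC and triangles for the 2 LIF-ESC libraries. The triangles lie to the left for the cholesterol and fatty acid genes and for glycolysis genes other than Vegfa, and to the right for the one-carbon and stress response genes.

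The integrated stress response, in which the factor ATF4 answers a shortage of amino acids or misfolded protein, was higher as a group. Of 26 tested genes of this response and the unfolded protein response, 15 were higher and 0 lower, with a median of 1.29 that was 1.17 after rescaling. Chac1, which degrades glutathione, was at 3.99 and 4.86 TPM in -LIF-ESCs and 276 and 279 TPM in LIF-ESCs, a 62.8-fold difference with a log2 fold change of 5.69 (SE 0.078) and an adjusted p of 1.9e-06 in limma. Trib3, a pseudokinase that restrains ATF4 signalling, was at 6.94 and 8.04 TPM in -LIF-ESCs and 287 and 288 TPM in LIF-ESCs. Nupr1, a small stress protein, was at 2.81 and 2.39 TPM in -LIF-ESCs and 117 and 115 TPM in LIF-ESCs, and Herpud1, which serves degradation at the endoplasmic reticulum, at 9.05 and 10.3 TPM in -LIF-ESCs and 79.5 and 75.7 TPM in LIF-ESCs. The -LIF-ESC libraries stayed at or below 10.3 TPM in all 4 genes. Asns, which makes asparagine, was not called at a log2 fold change of 0.74, and the chaperone Hsp90b1 was at -0.54. Of the 26 genes, 11 were not called, and 5 had a negative log2 fold change with an adjusted p under 0.05 in limma. Serine, glycine and one-carbon enzymes, some of which ATF4 also controls, had 6 of 21 higher (4 after rescaling) and 1 lower, with a median of 0.33. Mthfd2, the mitochondrial folate enzyme, was at 30.6 and 30.0 TPM in -LIF-ESCs and 231 and 229.5 TPM in LIF-ESCs, and Aldh1l2, its mitochondrial partner, at 0.235 and 0.372 TPM in -LIF-ESCs and 15.7 and 14.3 TPM in LIF-ESCs. Shmt2, which splits serine, was higher at a log2 fold change of 1.58. Tdh, the threonine dehydrogenase on which mouse ESCs depend, and Psat1 of serine synthesis were at log2 fold changes of 0.91 and 0.65 and were not called.

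ATF4 and its partners bind the letters TGATGNAA. On either strand they were found in the windows of 9 of 24 genes of the stress list (37.5%), of 5.27% of all genes called higher, of 2.88% of those called lower and of 2.7% of all genes with a window. Chac1, Herpud1, Nupr1, Trib3 and Asns were among the 9. The stretches of Chac1 and Herpud1 are shown. Their log2 fold changes were among the highest of the list, and the motif lies before their start. It begins 193 bases before the start in Chac1 and 112 bases before it in Herpud1. Capitals mark the motif, read on the opposite strand as TTGCATCA.
Chac1, chr2:119351042-119351228, plus strand: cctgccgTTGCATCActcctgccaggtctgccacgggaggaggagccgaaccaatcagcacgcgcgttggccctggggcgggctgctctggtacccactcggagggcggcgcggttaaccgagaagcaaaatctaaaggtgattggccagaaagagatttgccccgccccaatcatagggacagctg
Herpud1, chr8:94386229-94386428, plus strand: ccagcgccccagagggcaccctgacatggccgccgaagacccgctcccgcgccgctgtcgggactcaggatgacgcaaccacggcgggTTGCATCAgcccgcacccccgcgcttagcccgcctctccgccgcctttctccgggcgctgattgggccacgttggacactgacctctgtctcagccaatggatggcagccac

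Housekeeping programmes moved little. Of 76 nuclear genes for oxidative phosphorylation, 1 was higher and 0 lower (2 lower after rescaling), with a median of -0.08, and of 13 mitochondrially encoded proteins 1 was higher and 0 lower. Ndufs5, a subunit of complex I, was the nuclear one, at 19.7 and 20.5 TPM in -LIF-ESCs and 89.5 and 97.3 TPM in LIF-ESCs, a value that is uncertain where reads match its processed copies, and Atp5a1, of ATP synthase, was not called at a log2 fold change of 0.32. The mitochondrial one was mt-Nd6, at a log2 fold change of 1.02, which lost its call after rescaling at 0.84. The call was also lost when replicate 1 of -LIF-ESCs was left out. Another mitochondrial gene, mt-Co1, was not called at -0.29. Of 79 ribosomal protein genes, 4 were higher and 2 lower (4 lower after rescaling), with a median of -0.08. The 6 called genes, among them Rpl29 at 24.2 and 27.8 TPM in -LIF-ESCs and 501 and 487 TPM in LIF-ESCs and Rpl37a at 1065 and 1131 TPM in -LIF-ESCs and 359 and 370.1 TPM in LIF-ESCs, have processed copies that can share their reads, and their values are uncertain.

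Of 20 Nrf2 regulated antioxidant genes, 2 were higher and 2 lower, with a median of -0.34, and 0 were called higher after rescaling. Hmox1, or haem oxygenase, was at 98.3 and 102 TPM in -LIF-ESCs and 219.5 and 219 TPM in LIF-ESCs, a log2 fold change of 1.12 that lost its call after rescaling at 0.95. Gpx2, a glutathione peroxidase, was lower at a log2 fold change of -1.97, and Prdx1, a peroxiredoxin, was not called at -0.64. Among YAP and TEAD targets 6 of 29 were higher and 3 lower, but 4 were higher and 5 lower after rescaling, so the balance of its calls turned round. Axl, a receptor kinase, was at 10.3 and 10.7 TPM in -LIF-ESCs and 57.7 and 61.8 TPM in LIF-ESCs, while Tgfb2, a growth factor, was at 24.0 and 25.1 TPM in -LIF-ESCs and 1.23 and 1.65 TPM in LIF-ESCs. The usual readouts Ctgf and Cyr61 parted, with Ctgf higher at a log2 fold change of 1.08 (and 0.91 after rescaling, without a call) and Cyr61 at -0.53, not called. Contractile genes of the smooth muscle type had 2 of 27 higher and 8 lower, with a median of -0.27. Acta2, the smooth muscle actin, was at 31.1 and 30.3 TPM in -LIF-ESCs and 225 and 227 TPM in LIF-ESCs, whereas Tagln2 was at 569 and 558 TPM in -LIF-ESCs and 136 and 127 TPM in LIF-ESCs and Myh10 and Csrp1 were lower at log2 fold changes of -1.81 and -1.72.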

How the data were processed

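PolyA RNA libraries of 4 samples (2 LIF-ESCs, 2 -LIF-ESCs) were compared, and the 2 OSM libraries entered only the estimate of the spread. Figure captions of the study call the replicates biological, and how they were kept apart is not given in the sources used here. The deposited values are TPM, which the authors calculated from reads per gene. The submitters' processing notes name Trimmomatic, HISAT2, featureCounts and mm10. Strand and multimapping settings are not given in the sources used here, so genes with near-identical copies or antisense partners are uncertain.

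Genes that reached 1 TPM in 2 or more of the 6 libraries were tested. The test was that of limma (version 3.58.1, under R version 4.3.3) on log2(TPM + 1), with moderated variances that follow mean expression, all 3 groups in the fit, no block and Benjamini-Hochberg adjustment. Reads were recovered from TPM and exon lengths of GENCODE M21, in which 99.4% of the 28584 genes matched once. They were whole within 0.02 read in all 6 libraries for 94.9% of the matched genes. The limit for a gene at 0 was 3 reads over both libraries of the group. Intervals of that kind cover counting error only.

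The comparison and the 46 gene lists were chosen with earlier results of these data known. For each list the text names from a fixed set, made of up to 4 called genes in each direction with the largest change (at least 5 TPM in the higher group, groups not overlapping), up to 2 abundant genes that were not called, fixed members and the cell type markers. Over all genes, the 10 highest and 10 lowest changes at 10 TPM or more could be named. Some genes that the rule would name are not reported here. Alternatives covered the pseudocount, filters, scaling, the trend, the groups fitted, the replicate block, the call rule, recovered reads (voom) and each library left out. Leaving out gene models under 200 exonic bases, and motifs other than that of STAT, were chosen after seeing the data. In all, 6 motifs were searched on both strands of RefSeq windows (GRCm38.p6), and printed stretches were cut where they reached an annotated exon.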

Additional observations from a re-analysis of the deposited data

How the results depend on the processing

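The number of genes higher in LIF-ESCs was 2470, but 7822 with no limit on the fold change and 1160 when limma tested against a log2 fold change of 1 (treat). For lower genes the corresponding values were 1502, 4809 and 633, with 996 under a filter of 5 TPM and 2316 with voom on recovered reads. The share of higher genes among the calls, 62.2%, was 50.5% after median ratio or TMM scaling, 53.7% with voom, 58.4% without short gene models (chosen after seeing the data), 64.7% with treat and 66.1% under the filter of 5 TPM. The overall median of 0.165 was 0.012 after median ratio scaling, 0.014 after TMM, 0.059 with voom, 0.046 with no filter, 0.135 without short gene models, 0.190 with a pseudocount of 0.1 and 0.199 under the filter of 5 TPM. Leaving out each library in turn gave 2444 to 2486 higher genes, 1486 to 1514 lower genes and medians of 0.164 to 0.169. With the narrower STAT motif the share of the STAT3 target list was 11.1% in place of 25.9%, by its construction, since it accepts fewer sequences. The causes of the other differences were not tested.

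The list medians of retinoid genes (0.03), imprinted genes (0.01), replication genes (0.06), mitochondrially encoded genes (0.07) and 2-cell genes (0.06) turned negative under median ratio, TMM and voom. Those of mesoderm, Notch and germline genes changed sign under the filter of 5 TPM, from 0.53 to -0.64, -0.13 to 0.03 and -0.41 to 0.07. The order of the highest list medians also moved: fibroblast, Hox and chemokine genes had 2.07, 1.13 and 1.25 on log2(TPM + 1), 2.76, 2.65 and 1.93 with a pseudocount of 0.1, and 2.64, 2.95 and 1.86 with voom. Same-numbered replicates of the groups did not deviate together (Pearson's r of -0.0283 across 9494 genes, which are not independent). With 1 replicate difference per group, this value cannot decide whether same-numbered libraries were handled together. With the replicate block, 2478 genes were higher and 1504 lower, and 0 of the named genes lost their call. With 2 libraries per group and 1 cell line, small differences are not resolved and differences between lines are not measured.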
